A study of Mus musculus with 8 samples.

Results

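A set of 8 genes of nucleotide and lysophospholipid sensing was followed in microglia, the resident macrophages of the brain. They are the purine and pyrimidine receptors P2ry12, P2ry13, P2ry6 and P2ry14, the ATP-gated channels P2rx4 and P2rx7, the ecto-nucleotidase Entpd1 (CD39) and the lysophosphatidylserine receptor Gpr34. Each was matched by its symbol to 1 row of a deposited table of 46983 genes, so that 8 of 46983 genes are described. The set was proposed with earlier results of these libraries in view, which included the difference between libraries named Qk-KO and libraries named WT. Differences by sample name are therefore given as values with no test, and nothing is supported by them.

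Total RNA was sequenced from microglia isolated from the corpus callosum of FvB/C57BL6 hybrid mice. Qk encodes the RNA-binding protein quaking. Qk-KO mice carried Cx3cr1-CreER;QKLoxP/LoxP and WT mice carried Cx3cr1-CreER;QKLoxP/+, so that both groups had the tamoxifen-inducible Cre driven by the Cx3cr1 promoter and the WT mice had a single floxed Qk allele. All mice were 8 weeks old, were injected with tamoxifen, and ate 0.2% cuprizone, a copper chelator that kills oligodendrocytes, for 6 weeks. Cx3cr1 is also active in other macrophages, and no group without cuprizone or without Cre was measured among these libraries. By sample name, 4 libraries were Qk-KO and 4 were WT, each numbered 1 to 4. The genotype field of the labels contradicts the name for 4 of the 8 libraries: it gives WT for named Qk-KO 1 and 3, and Qk-KO for named WT 2 and 3. Both labels read Qk-KO only for named Qk-KO 2 and 4, and both read WT only for named WT 1 and 4. The labels do not say whether libraries came from different animals, and the p-values measure only the spread between libraries, which may be technical.

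Levels are given in regularized log2 units, in which 1 unit is a factor of 2, and as CPM, the share of a gene scaled to a total of 1000000, for means over the 8 libraries. The libraries held about 43900000 to 58500000 reads in the named Qk-KO group and 59700000 to 69700000 in the named WT group, as recovered from the table, so that depth did not overlap between the named groups. Qk itself had 15.59, 15.40, 15.69 and 15.29 in named Qk-KO 1 to 4, against 15.50, 15.38, 15.41 and 15.37 in named WT 1 to 4. Its level over the whole gene did not separate the groups by name, and by genotype field it spanned 15.29 to 15.41 in field Qk-KO libraries and 15.37 to 15.69 in field WT libraries. Which part of the gene is flanked by loxP sites is not given in the labels, so this level checks neither label. All 9 microglial markers examined were detected at 1 CPM or more, and their summed level was 9350 to 11100 CPM in named Qk-KO libraries and 11900 to 13400 CPM in named WT libraries. Csf1r (5878 CPM) and Cx3cr1 (1762 CPM) contributed most to this sum, with differences by name of -0.28 and -0.68. Sall1 had -0.38, and the remaining markers lay between -0.09 and -0.02. Fewer microglia, less RNA per cell and lower levels of single marker genes cannot be told apart in such bulk samples.

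Microglia sense injury through nucleotides that leave damaged cells. P2ry12, a Gi-coupled ADP receptor and a widely used marker of surveying microglia, directs processes towards a lesion, and P2ry13, a second ADP receptor, helps to maintain process motility. P2ry6 binds UDP and promotes phagocytosis, P2ry14 binds UDP-glucose, and P2rx4 and P2rx7 open on ATP, P2rx7 at high concentrations and upstream of the NLRP3 inflammasome. Entpd1 on the cell surface degrades ATP and ADP and so limits the ligands of the receptors. Gpr34 binds lysophosphatidylserine, a lipid released from damaged membranes and myelin.

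Quaking binds RNA at the quaking response element, which is ACTAAC or ACTAAT with TAAC or TAAT nearby. The longest protein-coding transcript of each gene in GENCODE vM21 (GRCm38) was searched on the transcript strand for the first part followed within 1 to 20 bases by the second part. Such an element was found in 2 of the 8 genes, P2ry12 and P2ry13, and in 9.9% of all 21877 protein-coding genes. The 2 elements are shown because Qk is the gene targeted in the study, with both parts of the element in capitals.
P2ry12 element: ACTAATgattcTAAC
P2ry13 element: ACTAACatttgtatggacccctTAAT
The P2ry12 element lies at chr3:59218008-59218022 and the P2ry13 element at chr3:59209466-59209491, both on the minus strand and both in coding sequence. Among transcripts within 20% of the same length, 6.77% held an element for P2ry12 and 7.72% for P2ry13. A match is a match of letters and does not show that quaking binds there. No match was found in the transcripts of P2ry6, P2ry14, P2rx4, P2rx7, Entpd1 or Gpr34.

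P2ry12 and P2ry13 are neighbours that differed in their pattern across libraries, so their promoter windows, 250 bases before to 50 bases after the annotated start in RefSeq (GRCm38.p6), are shown side by side. Capitals mark GGAAGT or its reverse complement, the core bound by PU.1, the ETS factor that all macrophages need.
P2ry12 window, chr3:59262936-59263235, minus strand: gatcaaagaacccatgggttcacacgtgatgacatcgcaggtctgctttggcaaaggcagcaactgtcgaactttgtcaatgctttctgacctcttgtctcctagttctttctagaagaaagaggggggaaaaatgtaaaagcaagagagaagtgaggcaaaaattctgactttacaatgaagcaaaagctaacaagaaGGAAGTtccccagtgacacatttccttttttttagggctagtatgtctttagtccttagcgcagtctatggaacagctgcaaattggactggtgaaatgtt
P2ry13 window, chr3:59210833-59211132, minus strand: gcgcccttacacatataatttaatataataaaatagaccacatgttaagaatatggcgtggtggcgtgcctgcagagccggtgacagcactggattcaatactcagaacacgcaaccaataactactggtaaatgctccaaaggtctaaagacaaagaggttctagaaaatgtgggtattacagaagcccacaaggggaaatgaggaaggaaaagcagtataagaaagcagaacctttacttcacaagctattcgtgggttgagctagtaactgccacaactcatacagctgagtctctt
The P2ry12 window held 1 such match, starting at position -51 from the annotated start, and the P2ry13 window held none. Of all 32851 windows, 23.8% held the match on either strand. The letters TATAAA and CTATTTNTA, a core bound by MEF2 factors, were searched on both strands and were in neither window, against 13.6% and 1.34% of all windows. In all, 6 of the 8 genes had a window in the RefSeq table, and P2ry6 and Gpr34 had none. GGAAGT or its reverse complement was also in both windows of P2rx7 and in 1 window of P2ry14, and in no window of P2rx4 or Entpd1.

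Per length, the 8 genes covered a wide range of levels. Gpr34 had 155 CPM per kb of exon, P2ry12 148 and P2ry13 112, which placed all 3 above at least 97.6% of the 22546 genes tested. Entpd1 had 54.1 CPM per kb, P2ry6 50.7, P2rx7 38.5 and P2rx4 17.1. P2ry14 had 0.173 CPM per kb (1.92 CPM in all) and stood above 25.8% of genes tested. The order was not fixed at the top: Gpr34 was higher than P2ry12 in 2 of 8 libraries only, and P2ry12 was higher than P2ry13 in 6 of 8. Entpd1 and P2ry6 also could not be ordered, with 44.9 to 57.6 and 44.7 to 56.6 CPM per kb over the libraries. Below them, P2ry6 was higher than P2rx7, P2rx7 higher than P2rx4, and P2rx4 higher than P2ry14 in 8 of 8 libraries. The lengths used join all annotated exons of a gene, 7025 bases for P2rx4, 5970 for P2rx7 and 11059 for P2ry14. The longest protein-coding transcripts of these genes have 2702, 4936 and 2476 bases. The order per length, that of P2rx7 and P2rx4 above all, can therefore change with the length used. All 8 genes passed the filter on low values.

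**Figure D1:**
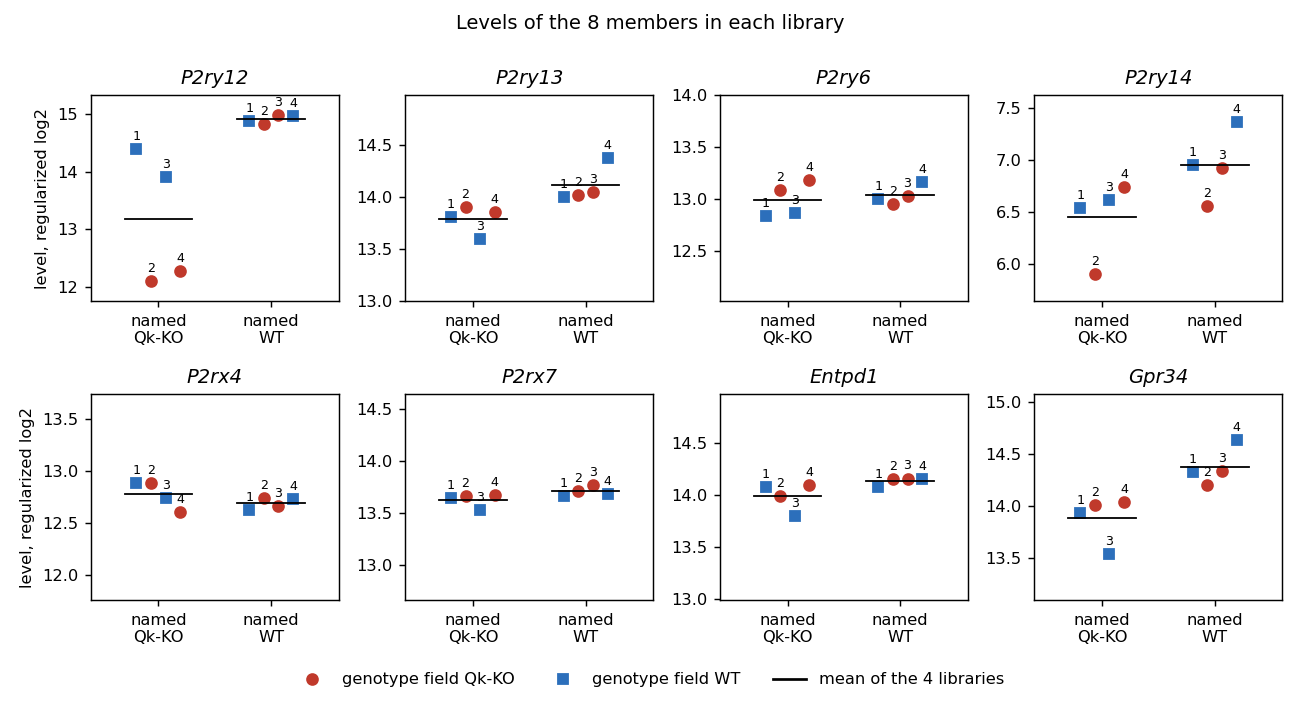
Level of each gene in each library in regularized log2 units, with named Qk-KO libraries on the left and named WT libraries on the right of each panel, replicate numbers above the points, and colour and shape by genotype field. Axes differ between panels, and the black line is the mean of 4 libraries. P2ry12 spans 12.09 to 14.40 in named Qk-KO libraries and 14.82 to 14.99 in named WT libraries.

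P2ry12 had the widest spread of the 8 genes. Its level was 14.40, 12.09, 13.91 and 12.28 in named Qk-KO 1 to 4, against 14.88, 14.82, 14.99 and 14.96 in named WT 1 to 4. The named WT libraries lay close together, all named Qk-KO libraries lay below them, and named Qk-KO 2 and 4 lay far below named Qk-KO 1 and 3. On the CPM scale these levels correspond to 381, 77.0, 272 and 87.4 in named Qk-KO 1 to 4, against 530, 510, 572 and 563 in named WT 1 to 4. The named groups averaged 13.17 ± 1.16 and 14.91 ± 0.08 (SD, n = 4 each), a difference of -1.74 (SE 0.53), and the authors' deposited table gives -1.15 (SE 0.43). The highest and lowest libraries differed 7.43-fold, and only 17 of the 1704 genes at 100 CPM or more (0.998%) spanned a wider range.

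Both low libraries are those in which the name and the genotype field both read Qk-KO. In the fit by genotype field alone, P2ry12 averaged 13.55 ± 1.57 in field Qk-KO libraries and 14.54 ± 0.49 in field WT libraries (SD, n = 4 each). That difference of -0.99 (SE 0.76, 95% interval -2.78 to 0.80) did not pass limma's test, with an adjusted p of 1. It was -0.51 without named Qk-KO 2 and -0.57 without named Qk-KO 4, and passed in neither case. The interaction, which asks whether the difference by field is another among named Qk-KO than among named WT libraries, was -1.96 (SE 0.22, 95% interval -2.47 to -1.44). Its limma p was 3.03e-05 and ranked 9 of 22546 genes, but its adjusted p of 0.0685 did not pass 0.05. With each library centred on its median the interaction was -2.13 (limma adjusted p = 0.0149). It was -1.86 without named Qk-KO 2 and -2.20 without named Qk-KO 3, but either leaves 1 library in a combination of labels. In 10 of 13 alternative settings the interaction did not pass, as in the main fit.

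The same split was then examined within each named group, a comparison chosen after these values were seen. Within named Qk-KO, P2ry12 was 3.92-fold lower in the 2 field Qk-KO libraries than in the 2 field WT libraries (-1.97, SE 0.15, limma adjusted p = 0.0237), and it ranked 2 of 22546 genes by p. Within named WT, the corresponding difference was -0.02 (SE 0.15, adjusted p = 1). Both SEs come from 1 fit that pools the spread of all 8 libraries. The named WT libraries lay within 14.82 to 14.99, while named Qk-KO 1 and 3 had 14.40 and 13.91, and named Qk-KO 2 and 4 had 12.09 and 12.28. The SE and the p within named Qk-KO thus rest partly on the spread of the named WT libraries. The call within named Qk-KO was lost when any 1 named WT library was left out (adjusted p = 0.069 to 0.0892 by limma), which thins the estimate of the spread without moving the difference, and it was lost without limma's trend and robust options (adjusted p = 0.156), and the adjusted p spanned 0.00275 to 0.156 over its alternatives. Over all genes, 5 of 22546 (0.0222%) passed in this comparison and 5 (0.0222%) in the interaction. At an unadjusted limma p under 0.05 there were 2709 genes within named Qk-KO and 669 within named WT. The 2 field Qk-KO libraries there were not closest to each other. Over genes at 5 CPM or more, named Qk-KO 2 and 4 differed with an SD of 0.52. It was 0.38 for named Qk-KO 2 and 3, 0.36 for named Qk-KO 1 and 3, and 0.40 for named Qk-KO 4 and named WT 4. The other genes called within named Qk-KO were Npcd, mt-Co2, Kmt2d and Plagl2, and those called in the interaction were AC153941.1, Purb, mt-Nd3, Pakap and Max. Kmt2d, a chromatin regulator, had 13.45, 12.47, 13.41 and 12.37 in named Qk-KO 1 to 4.

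Among the 10106 genes at 5 CPM or more, P2ry12 was the single gene for which named Qk-KO 2 and 4 both lay at least 1 unit below each of the other 6 libraries, and no gene had both at least 1 unit above. This count was also made after the values of P2ry12 were seen, and it leaves out genes under 5 CPM. Among those, mt-Co2 (3.90 CPM) and Npcd (0.25 CPM) had both libraries more than 1 unit above each of the other 6. By any amount, both lay below each of the other 6 libraries for 899 of all genes tested (3.99%) and for 1 of the 9 microglial markers, Gpr84, a fatty acid receptor. Gpr84 had 12.71, 12.18, 12.45 and 12.06 in named Qk-KO 1 to 4, against 12.52, 12.44, 12.42 and 12.38 in named WT 1 to 4. The other 8 markers were not lowest in this pair of libraries. Tmem119 had 14.27, 14.37, 14.03 and 14.84 in named Qk-KO 1 to 4, against 14.37, 14.35, 14.50 and 14.61 in named WT 1 to 4. Trem2, a lipid-sensing receptor, stood at 15.95 to 16.11 in named Qk-KO libraries and 15.94 to 16.11 in named WT libraries. Platelets carry P2ry12 as well, and 6 of 8 platelet markers were under 1 CPM, with sums of 4.91 to 6.89 CPM in named Qk-KO libraries and 5.03 to 5.86 CPM in named WT libraries. Border-associated macrophage markers summed to 136 and 182 CPM in named Qk-KO 2 and 4, against 122 and 120 CPM in named Qk-KO 1 and 3 and 112 to 186 CPM in named WT libraries. Astrocyte markers summed to 131 and 496 CPM in named Qk-KO 2 and 4, against 203 and 83.2 CPM in named Qk-KO 1 and 3 and 204 to 536 CPM in named WT libraries. Monocyte markers summed to 538 and 305 CPM in named Qk-KO 2 and 4. They summed to 677 and 688 CPM in named Qk-KO 1 and 3 and 538 to 686 CPM in named WT libraries. Of 7 monocyte markers, 1 was lowest in this pair of libraries, Fn1 (563 CPM). The part of these sums in the low values of P2ry12 was not tested.

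Some genes in the table switched between near 0 and a high level from library to library. Such all-or-none values, with a range of at least 5 units reaching a level of 7, were found for 61 of the 22546 genes tested, and 11 of 13 protein-coding mitochondrial genes had a range of at least 5 units. In named Qk-KO 2 and 4, mt-Co2 had 8.00 and 9.98, against 1.75 and 1.88 in named Qk-KO 1 and 3 and 1.49 to 1.89 in named WT libraries. mt-Cytb kept 14.70 to 14.88 in named Qk-KO and 14.91 to 15.09 in named WT libraries. P2ry12 was far from 0 in all 8 libraries, and the part of the processing in its low values was not tested.

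P2ry12, P2ry13 and P2ry14 lie together on the minus strand of chromosome 3 (GRCm38), inside the span of Med12l, a Mediator subunit gene on the plus strand. P2ry12 spans chr3:59216272-59262871, P2ry13 chr3:59207892-59210882 and P2ry14 chr3:59113855-59153618, and Med12l spans chr3:59005825-59318682. No source used here says whether counting used strand, so reads of Med12l and of the receptors cannot be told apart where their exons meet. Med12l had 10.13, 10.30, 10.35 and 10.32 in named Qk-KO 1 to 4, against 10.28, 10.20, 10.03 and 10.74 in named WT 1 to 4. It was thus not lower in named Qk-KO 2 and 4. Of all 35 other annotated genes within 100 kb of the 8 genes, 16 had an adjusted p in the authors' deposited table. None was under 0.05, against 1.22% of all 14150 genes with an adjusted p there, so that none among 16 says little. P2ry13 and P2ry12 lie 5390 bases apart, and the difference of P2ry12 minus P2ry13 was 0.59, -1.81, 0.31 and -1.58 in named Qk-KO 1 to 4, against 0.87, 0.81, 0.94 and 0.58 in named WT 1 to 4. The exons of the 2 genes have nearly the same length (2546 bases for P2ry12 and 2528 for P2ry13), and the difference was below 0 in named Qk-KO 2 and 4 and above 0 in the other 6 libraries.

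**Figure D2:**
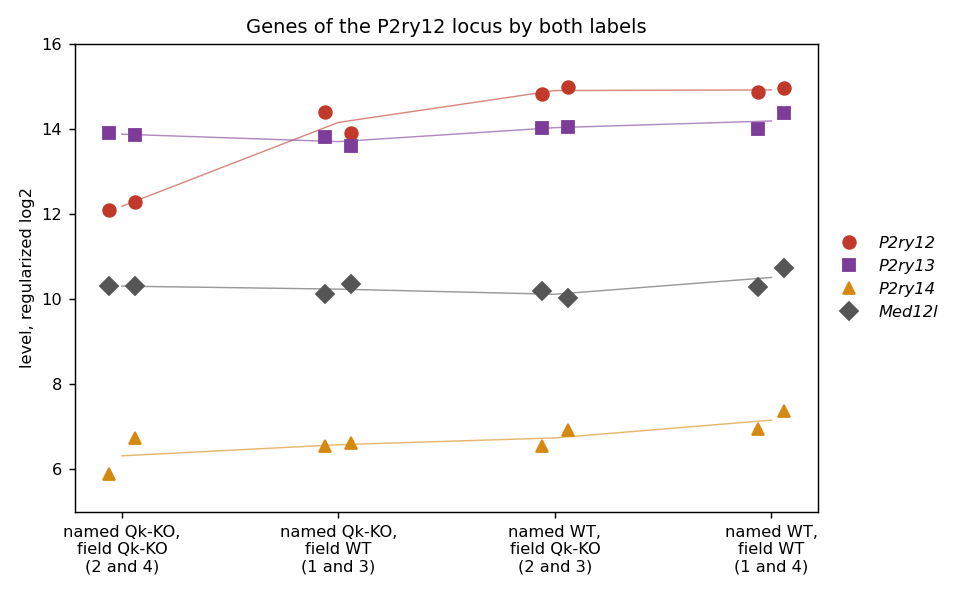
Levels of P2ry12, P2ry13, P2ry14 and Med12l in regularized log2 units for the 4 combinations of sample name and genotype field, with 2 libraries each; lines join the means. P2ry12 stands at 12.09 and 12.28 where both labels read Qk-KO and at 13.91 or above elsewhere, while Med12l stays between 10.03 and 10.74.

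P2ry13 varied much less. It had 13.81, 13.90, 13.60 and 13.86 in named Qk-KO 1 to 4, against 14.002, 14.02, 14.05 and 14.38 in named WT 1 to 4. All named Qk-KO libraries lay below all named WT libraries, with named WT 4 highest. The means were 13.79 ± 0.13 and 14.11 ± 0.18 (SD, n = 4 each), a difference of -0.32 (SE 0.10). By genotype field the difference was 0.01 (SE 0.15, 95% interval -0.32 to 0.34, limma adjusted p = 1), and the interaction was 0.33 (SE 0.18, limma adjusted p = 0.504).

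Gpr34 followed P2ry13. It had 13.94, 14.02, 13.54 and 14.04 in named Qk-KO 1 to 4, against 14.33, 14.21, 14.34 and 14.63 in named WT 1 to 4. The named groups did not overlap, with named Qk-KO 3 lowest and named WT 4 highest, as for P2ry13. Their means were 13.88 ± 0.23 and 14.38 ± 0.18 (SD, n = 4 each), a difference of -0.50 (SE 0.13). By genotype field the difference was 0.04 (SE 0.21, 95% interval -0.44 to 0.52, limma adjusted p = 1), and the interaction was 0.49 (SE 0.21, limma adjusted p = 0.441). Gpr34 lies at chrX:13632089-13640858 on the plus strand, inside the span of Cask on the minus strand. Cask, a scaffold kinase gene, had 10.87 to 10.996 in named Qk-KO libraries and 11.08 to 11.15 in named WT libraries, also without overlap (adjusted p = 0.0623 in the authors' deposited table). The neighbouring receptor gene Gpr82 had 0.0584 CPM. Deviations of P2ry13 and Gpr34 from their named group means had r = 0.93 over the 8 libraries, which share depth and processing. Those of Gpr34 also had r = 0.76 with P2ry6 and 0.73 with Entpd1. Genes outside the 8 were closer to Gpr34 than P2ry13 was, with r up to 0.982.

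Without overlap, 3 of the 8 genes (P2ry12, P2ry13 and Gpr34) were lower in the named Qk-KO libraries, against 2.7% of all genes tested. In the authors' deposited table, Gpr34 was the only one of the 8 with an adjusted p under 0.05, at 0.0266 for a log2 difference of -0.49 (SE 0.13), against 0.671% of 14150 genes that were called lower and 1.22% called in either direction. In limma's fit by name, 1 of 22546 genes (0.00444%) was called, C1qtnf5, which is none of the 8. The genes were selected on this contrast, so nothing is read from these counts. The summed microglial markers and the depth given above were also lower in named Qk-KO libraries without overlap, and 3 of 9 markers were called lower in the authors' deposited table: Sall1 (-0.39, adjusted p = 8.65e-05), Cx3cr1 (-0.70, adjusted p = 0.0017) and Csf1r (-0.28, adjusted p = 0.00327). Among border-associated macrophage markers, Ms4a7 was called higher there (0.82, adjusted p = 2.72e-08), although 6 of the 8 markers of that list were lower by name (median -0.12). The summed levels of the other 13 marker lists, of blood, vascular, neural and border cells, overlapped between the named groups. Single markers were nevertheless lower by name in 7 of 7 cases for astrocytes (median -0.87) and 5 of 5 for erythroid cells (median -0.67). So were 7 of 7 for mural cells and fibroblasts (median -0.54) and 6 of 7 for endothelial cells (median -0.61). Lower too were 6 of 6 for neurons (median -0.44), 7 of 7 for neutrophils (-0.34) and 6 of 6 for oligodendrocytes (-0.14). The counts were 6 of 7 for monocytes (-0.19) and 4 of 5 for oligodendrocyte precursors (-0.27). They were 4 of 7 for T and NK cells, 2 of 6 tested for platelets and 1 of 5 for B cells. The median over all genes tested was -0.0044, and none of these markers was called. The part of these values in the differences of P2ry13 and Gpr34 was not tested.

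P2ry6 did not separate the named groups. It had 12.84, 13.09, 12.86 and 13.18 in named Qk-KO 1 to 4, against 13.003, 12.96, 13.03 and 13.17 in named WT 1 to 4. Named Qk-KO 2 and 4, where P2ry12 was lowest, stood above named Qk-KO 1 and 3. The named difference was -0.05 (SE 0.09), the difference by field was 0.09 (SE 0.08, 95% interval -0.10 to 0.28, limma adjusted p = 1), and the interaction was 0.38 (SE 0.11, unadjusted p = 0.0105, limma adjusted p = 0.341). Deviations of P2ry6 and P2ry12 from their named group means had r = -0.81 over the 8 libraries. P2ry6 lies at chr7:100937630-100974649 on the minus strand, next to P2ry2, a receptor for ATP and UTP, which had 9.30, 8.75, 9.45 and 8.45 in named Qk-KO 1 to 4, against 8.76, 8.84, 8.44 and 8.14 in named WT 1 to 4.

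P2ry14 had the lowest level of the 8 genes. It stood at 6.54, 5.90, 6.61 and 6.74 in named Qk-KO 1 to 4, against 6.95, 6.56, 6.92 and 7.37 in named WT 1 to 4. The groups overlapped through named WT 2, and named Qk-KO 2 was lowest. The named difference was -0.50 (SE 0.23) and the difference by field was -0.34 (SE 0.26, 95% interval -0.93 to 0.25, limma adjusted p = 1). Without named Qk-KO 2 the named difference was -0.32 and that by field -0.13, and without named WT 4 the difference by field was -0.17.

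The ATP-gated channels were the steadiest of the 8 genes. P2rx7 had 13.65, 13.67, 13.53 and 13.67 in named Qk-KO 1 to 4, against 13.67, 13.71, 13.77 and 13.69 in named WT 1 to 4. P2rx4 had 12.89, 12.88, 12.74 and 12.60 in named Qk-KO 1 to 4, against 12.63, 12.74, 12.67 and 12.73 in named WT 1 to 4. The ranges over all 8 libraries were 0.24 for P2rx7 and 0.28 for P2rx4, and the named groups overlapped for both. Named differences were -0.08 (SE 0.05) for P2rx7 and 0.09 (SE 0.07) for P2rx4. By field they were 0.07 (SE 0.06, 95% interval -0.05 to 0.20) for P2rx7 and -0.02 (SE 0.08, 95% interval -0.20 to 0.16) for P2rx4, each with a limma adjusted p of 1. Both genes lie on the plus strand of chromosome 5, P2rx7 at chr5:122643911-122691432 and P2rx4 at chr5:122707544-122729738, 16112 bases apart. Deviations of these neighbours from their named group means had r = 0.09 over the 8 libraries.

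Entpd1 was also steady. It had 14.07, 13.99, 13.80 and 14.10 in named Qk-KO 1 to 4, against 14.07, 14.15, 14.16 and 14.15 in named WT 1 to 4. The groups overlapped through named Qk-KO 4 and named WT 1, and named Qk-KO 3 was lowest. The named difference was -0.15 (SE 0.07), or -0.08 without named Qk-KO 3, and the difference by field was 0.08 (SE 0.08, 95% interval -0.11 to 0.26, limma adjusted p = 1). Entpd1 lies at chr19:40612366-40741602 on the plus strand. Its deviations had r = 0.83 with those of P2rx7 over the 8 libraries.

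By genotype field no gene of the 8 and no gene of all 22546 (0%) passed limma's adjusted threshold. At an unadjusted p under 0.05 the genotype field called 0 of the 8 genes, against 602 of all genes (2.67%). The exact two-sided permutation test over the 70 assignments of field labels gave p from 0.114 for P2rx7 to 0.971 for P2ry13, and 0.686 or more after adjustment over the 8 genes, where the smallest p it can give is 0.0286. For the interaction, 3 of the 8 genes (P2ry12, P2ry6 and Gpr34) had an unadjusted limma p under 0.05, against 11.2% of all genes, and none of the 8 passed after adjustment.

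**Figure D3:**
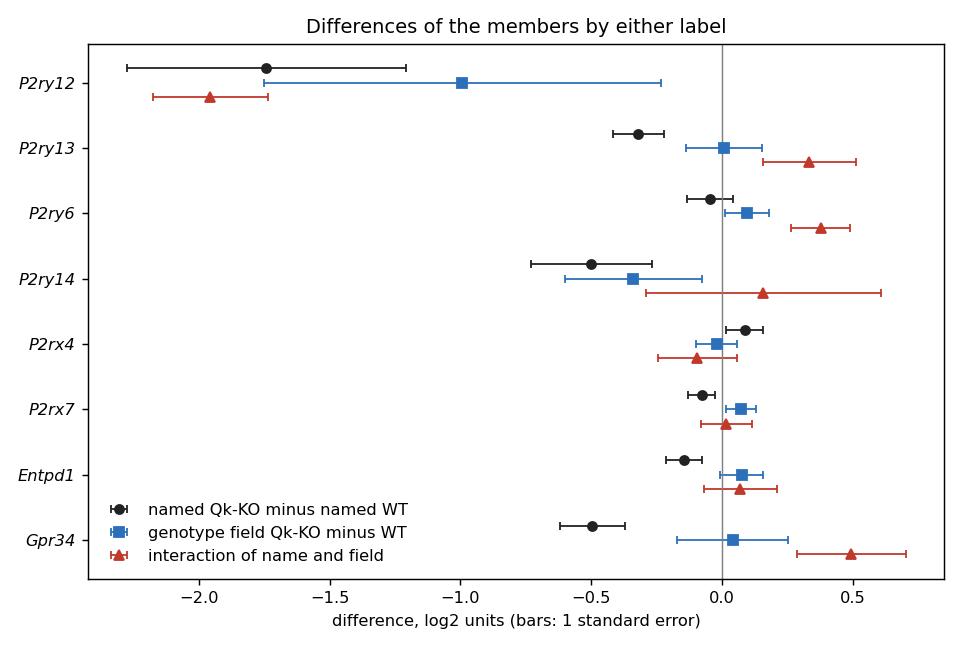
Differences of the 8 genes in log2 units, with bars of 1 standard error: named Qk-KO minus named WT (black), genotype field Qk-KO minus WT (blue) and the interaction of both labels (red). P2ry12 lies at -1.74, -0.99 and -1.96, and by genotype field the other 7 genes lie between -0.34 and 0.09.

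The genes most like each of the 8 were sought among genes at 5 CPM or more by Pearson's r of the deviations from the named group means over the 8 libraries, as a description. For P2ry12 they were Wipf1 (r = 0.995), Usp32 (0.986), Ago2 (0.985), Zfp609 (0.983) and Plagl2 (0.98). Wipf1, an actin regulator, had 12.55, 12.11, 12.42 and 12.15 in named Qk-KO 1 to 4, against 12.37, 12.37, 12.37 and 12.38 in named WT 1 to 4. Its range of 0.44 was far smaller than the 2.89 of P2ry12, as was that of Ago2, the slicer protein of RNA interference (0.81). The most opposed genes were Wdr73 (-0.985), Zfp710 (-0.98), Ccdc137 (-0.979), Rer1 (-0.977) and Gnpat (-0.977). P2ry13 was closest to Cyp4v3 (0.967), P2ry6 to Tal1 (0.997), P2ry14 to Cdadc1 (0.964), P2rx4 to Il4i1 (0.982), P2rx7 to Pias4 (0.954), Entpd1 to Nubp2 (0.981) and Gpr34 to Gpr107 (0.982). The 8 libraries behind each r share depth and processing.

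Other genes of nucleotide and lysophospholipid signalling were examined as 8 lists, which were also chosen with earlier results of these data known, so that their calls are a description. Of 93 listed genes, 66 had an adjusted p in the authors' deposited table and 2 of those were called there, against 1.22% of all genes. Of the 85 tested here, none was called by limma by name, by genotype field or in the interaction. Slc29a1, the equilibrative transporter that carries adenosine, had 12.26, 12.32, 12.26 and 12.31 in named Qk-KO 1 to 4, against 11.96, 12.15, 12.06 and 11.98 in named WT 1 to 4. All named Qk-KO libraries were higher, and the gene was called higher in the authors' deposited table, by 0.25 (SE 0.06) with an adjusted p of 0.016, while limma's adjusted p was 0.345. Slc29a4, a monoamine and adenosine transporter, had 3.76, 4.21, 4.75 and 5.04 in named Qk-KO 1 to 4, against 6.01, 6.08, 6.09 and 4.78 in named WT 1 to 4. The groups overlapped through named WT 4, and the authors' deposited table calls it lower (-1.49, SE 0.43, adjusted p = 0.0463) at a mean of only 0.78 CPM, while limma's adjusted p was 0.443.

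Among the other P2 nucleotide receptors, P2ry4 and P2rx2 were listed at 0, and P2ry2, at 8.03 CPM the highest of the list, had a named difference of 0.44 (SE 0.24). The median of the 6 tested was 0.0044, against -0.0044 over all genes tested. P2rx1, an ATP-gated channel, had 2.12 CPM and P2ry1, an ADP receptor, 0.52 CPM. Adora3 was the highest adenosine receptor with 53.8 CPM and a named difference of -0.09 (SE 0.10), followed by Adora1 with 9.47 CPM and -0.41 (SE 0.22). Adora2a, a Gs-coupled receptor, stood at 0.46 CPM, and all 4 adenosine receptors had negative named differences with a median of -0.49.

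Of the nucleotide and adenosine enzymes, 14 were tested with a median named difference of -0.08. The highest were Pnp, a purine nucleoside phosphorylase, with 83.7 CPM and a difference of 0.01 (SE 0.09), Enpp1, which cleaves ATP, with 40.5 CPM and -0.04 (SE 0.08), and Entpd4 with 29.8 CPM and 0.27 (SE 0.15). Nt5e (CD73), which follows Entpd1 in making adenosine, had 0.34 CPM. In the release and transport list the highest were Slc29a3, a lysosomal nucleoside transporter, with 213 CPM and -0.24 (SE 0.13), Slc29a1, and Lrrc8a, a volume-regulated channel subunit, with 56.3 CPM and -0.08 (SE 0.11).

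Other lysophospholipid receptors had a median named difference of -0.03 over 14 tested. The highest were S1pr1, a sphingosine-1-phosphate receptor, with 107 CPM and 0.03 (SE 0.06), Lpar6, a lysophosphatidic acid receptor, with 80.8 CPM and 0.34 (SE 0.12), and S1pr2 with 14.7 CPM and 0.16 (SE 0.10). Enzymes and transporters of lysophospholipids had a median of -0.17 over 12 tested. Abhd12, the main lysophosphatidylserine lipase, had 968 CPM and -0.07 (SE 0.06), Sgpl1, which degrades sphingosine-1-phosphate, had 467 CPM and -0.06 (SE 0.06), and Enpp2 (autotaxin) had 95.1 CPM and -0.76 (SE 0.40).

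Downstream of P2Y receptors, 15 genes were tested with a median named difference of -0.07 and none was called. Gnai2, the Gi subunit most abundant here, had 503 CPM and -0.09 (SE 0.05), Itgb1, the integrin beta-1 chain, 285 CPM and -0.05 (SE 0.05), and Rgs10, a brake on Gi signalling, 275 CPM and -0.04 (SE 0.05). Kcnk13 (THIK-1), the potassium channel that P2ry12 opens, had 43.4 CPM and -0.07 (SE 0.07). Named Qk-KO 2 and 4 both lay below each of the other 6 libraries for 1 of the 15 genes (6.67%), against 3.99% of all genes tested. That gene was Gnaq, the alpha subunit of Gq, and in the other signalling lists Adora2a, Slc29a3 and S1pr4 had the same pattern. Gnaq had 12.52, 12.20, 12.50 and 12.17 in named Qk-KO 1 to 4, against 12.48, 12.39, 12.43 and 12.39 in named WT 1 to 4. Among 11 inflammasome genes and partners of P2X channels the median was 0.02. Il1b had 16.06, 15.03, 15.69 and 13.82 in named Qk-KO 1 to 4, against 15.27, 15.48, 15.34 and 14.08 in named WT 1 to 4. Irf8, a macrophage transcription factor, had 591 CPM and -0.06 (SE 0.06), and Tmem176b 292 CPM and 0.27 (SE 0.12).

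**Figure D4:**
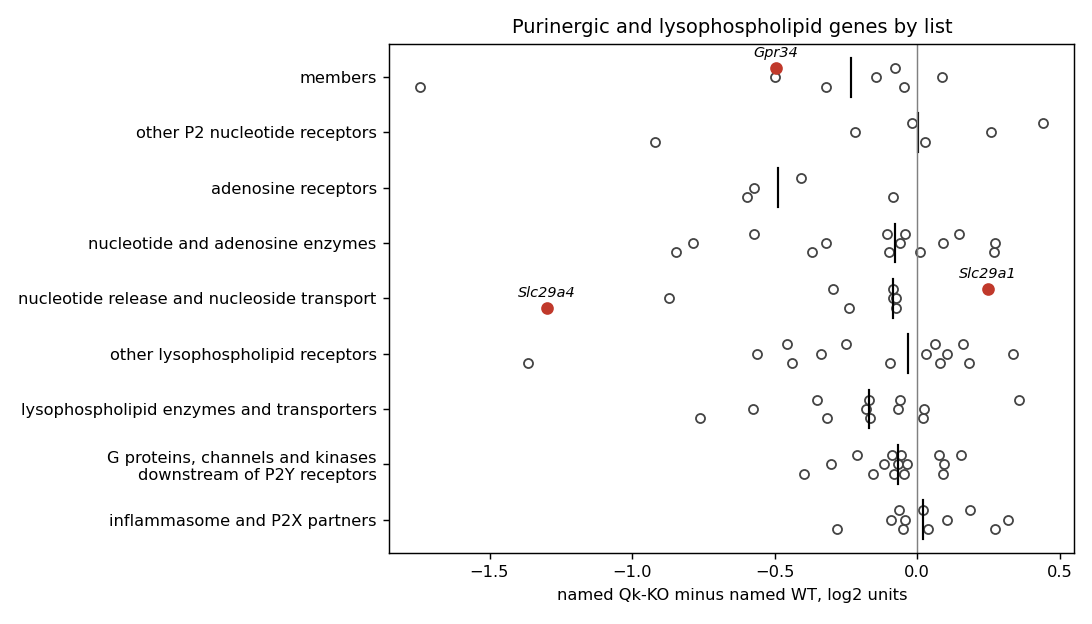
Named Qk-KO minus named WT difference of each tested gene in log2 units, by list; black ticks are list medians and filled red points are genes with an adjusted p under 0.05 in the authors' deposited table. Gpr34, Slc29a4 and Slc29a1 are filled, and P2ry12 is the leftmost point at -1.74.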

How the data were processed

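Total RNA of 8 microglial libraries was read from 1 deposited table. Per the submitters' processing notes, FastQC, HISAT2, StringTie, DESeq2 and the build mm10 were used, with no versions or roles; none of the sources used here gives the gene annotation release. The authors deposited 1 value per gene and library, read here from their behaviour as regularized log2 values, which are scaled for depth and shrink low genes towards the gene mean. The table also holds the authors' mean normalised signal, log2 fold change, its standard error, a Wald score and p-values, per the file headers.

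CPM was taken from the mean signal (56.79 per CPM). Library levels in CPM are 2 to the power of the log2 value, and reads per library come from the signal of genes with a single read, so both are approximate. A gene was tested where 4 or more libraries reached a normalised value of 1 (22546 of 27486 with reads; 19497 had none). Because the deposited values are not counts, no count test was run, and limma 3.58.1 (R 4.3.3, trend and robust) was used, with Benjamini-Hochberg adjustment over all genes tested, for the genotype field, the name and their interaction. The fits were tested on simulated data. Coordinates are from GENCODE vM21 (46488 of 46983 identifiers matched without version), promoter windows from RefSeq, and Python 3 tools made the other tables.

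The genes, lists and tests were chosen with earlier results of these data known. Named are the 8 genes, listed genes called in any fit or in the authors' deposited table, up to 3 of each list by mean level, neighbours within 100 kb and the genes of most similar pattern; Kcnk13, Gnaq, Nt5e, Kmt2d, mitochondrial genes and markers were added outside this rule. Comparisons within a named group were added after the data were seen. Alternatives left out each library, changed scaling, filter or fit, or added a replicate block. 1 microglial marker is not reported here and was left out of the marker list.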

Additional observations from a re-analysis of the deposited data

Results flagged for a closer look

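In groups of 4 libraries, by name or by genotype field, 32 sets of values of the 8 genes were examined for a library far from the other 3, and chance alone would mark about 1 in 20. P2ry13 was marked in the named WT group, where named WT 4 had 14.38 and the others 14.002 to 14.05. Entpd1 was marked in the same group, where named WT 1 had 14.07 and the others 14.15 to 14.16. Named WT 4 was also the highest library for Gpr34 and P2ry14, with 14.63 and 7.37. The cause was not tested. P2ry12 was not marked in the named Qk-KO group, since its low values came as a pair.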

How the results depend on the processing

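By name, differences of the 8 genes kept their sign in 126 of 128 settings, and both exceptions were P2ry6 (-0.11 to 0.03). Settings that changed only the filter, limma's options or the other terms of the model could not move these differences. Their agreement was fixed in advance, and the genes were selected on this contrast, so nothing is read from this count. By genotype field, no gene of the 8 passed in any of 15 settings each. Over all genes, the field called 0 genes, 0 to 1 with each library left out in turn and 3 with the replicate block. The name called 1 gene, 0 to 7 with each library left out, 0 among genes of at least 1 CPM, and 173 in the authors' deposited table and, with the replicate block, again C1qtnf5 as its 1 gene. The interaction called 5 genes, 5 to 248 with each library left out (248 without named Qk-KO 2), 10 with each library centred on its median, 9 with quantile normalization and 3 among genes of at least 1 CPM. For P2ry12 the interaction ranged from -2.20 to -1.71 with each library left out and was -2.13 with centring, which passed the threshold. The causes were not tested. Deviations of equally numbered libraries correlated with r = 0.045, 0.147, 0.246 and 0.456, and 6 of 8 libraries correlated best with their own number. The main fits did not pair libraries by number, because 1 pair had r = 0.045 only, but an absence of pairing is not shown. With the block, SEs by name were 0.08 for P2ry13, 0.06 for P2ry6, 0.15 for P2ry14 and 0.10 for Gpr34. Without it they were 0.10, 0.09, 0.23 and 0.13. For P2ry12, P2rx4 and Entpd1 the SE was 0.53, 0.07 and 0.07 either way, and for P2rx7 it was 0.06 against 0.05. P2rx7 by name was -0.00 with centring, against -0.08. With 2 libraries per combination of labels, the interaction rests on few values.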
